A study of Homo sapiens with 22 samples.

Results

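In this experiment the human colorectal cancer line LS180 was depleted of Staufen1 by RNA interference and compared with cells that received a control siRNA. All libraries labelled siSTAU1 (n = 2) or siCTRL (n = 2) were used, 4 of the 22 RNA-seq libraries of the series. The other 18 belong to an actinomycin D experiment with another RNA selection and were not mixed in. Every group was LS180, an established mucin-producing adenocarcinoma line, treated for 72 h and again for 72 h with siSTAU1 or siCTRL, with no other agent or allele named. The sample titles also carry a 0 h tag that the labels do not explain. LS180 is 1 line, and the labels do not say whether the libraries of a group came from separate cultures. The p-values therefore speak only for the scatter among these 4 libraries, and that scatter may be technical.

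Staufen1, encoded by STAU1, is a double-stranded RNA binding protein that recognises stem structures in mRNAs, many of them in 3′ untranslated regions (3′ UTRs). It is known for mRNA transport, for effects on translation, and for Staufen-mediated decay, in which it recruits the helicase UPF1 to bound mRNAs and leads to their degradation. Its paralogue Staufen2 shares the RNA-binding domains. The series as a whole is about Staufen1 and the mRNA of FOXA1, a forkhead transcription factor of gut and liver epithelium.

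The 4 libraries held 23730047 to 26658699 counts each, in a table of 58870 genes, of which 14073 had enough counts to be tested. Levels below are CPM (counts scaled to a common library total) after TMM scaling, either per library in the order of the replicates or as mean ± SD (n = 2), log2 fold changes carry ± their standard error (SE), and a fold change is siSTAU1 over siCTRL from edgeR's quasi-likelihood fit. A gene is called higher or lower where its Benjamini-Hochberg adjusted p over all genes tested was under 0.05. The correlation of log2 CPM was 0.996 between the siCTRL libraries, 0.996 between the siSTAU1 libraries and 0.984 to 0.987 between groups. All 15 colon epithelial markers were expressed. Their summed level was 11499.9 and 12056 TPM (RSEM's per-length scale) with siCTRL and 11067 and 10929 TPM with siSTAU1. Of the 15, 10 were called higher (66.7%) and 4 lower (26.7%), beside 23% of all genes tested in each direction. Their median log2 fold change was 0.11. The leukocyte marker PTPRC had 1 count in all, and COL1A2, PDGFRA, THY1 and ALB had none in any library. LUM, COL3A1 and LYZ, which serve as fibroblast and leukocyte markers elsewhere, were expressed. So were the monocyte and macrophage markers CD14, at 3.20 and 3.47 TPM with siCTRL and 4.23 and 4.35 TPM with siSTAU1 (called higher, log2 fold change 0.50 ± 0.19, adjusted p = 0.0439, a call lost without either siCTRL library or siSTAU1 replicate 2), and CD68, at 13.6 and 15.6 TPM and then 12.9 and 11.7 TPM (not called). Whether other cells had a part in these levels was not tested. The 9 fibroblast markers summed to 3.01 and 2.87 TPM with siCTRL and 9.34 and 9.66 TPM with siSTAU1. Most of that rise was LUM, at a mean of 1.1 TPM with siCTRL and 7.2 TPM with siSTAU1. Only 3 of the 9 had enough counts to be tested. The 9 leukocyte markers summed to 251 and 248 TPM with siCTRL and 104 and 100.2 TPM with siSTAU1, most of it LYZ.

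STAU1 itself fell to 6.62% of its siCTRL mean. Its level was 144 and 141 CPM with siCTRL and 9.7 and 9.17 CPM with siSTAU1 (edgeR log2 fold change -3.92 ± 0.057, adjusted p = 2.15e-12). The gene lies on chromosome 20 between 49113339 and 49188367 (GRCh38, minus strand). The siRNA-treated libraries were far below both controls and close to each other. STAU2 stood at 41.5 and 41.8 CPM with siCTRL and 48.7 and 51.2 CPM with siSTAU1 (log2 fold change 0.26 ± 0.058, adjusted p = 0.00333), a small rise without overlap between groups. That call was lost when effective gene length entered the fit as an offset (adjusted p = 0.0714).

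Differences between the groups were many and mostly small. Of the genes tested, 46.1% were called, 3242 higher (23%) and 3240 lower (23%), and 81.6% of the called genes changed by less than 1.5-fold. Called changes of at least 1.5-fold numbered 615 higher (4.37%) and 578 lower (4.11%). Those of at least 2-fold numbered 220 higher (1.56%) and 162 lower (1.15%). In 6479 of the 6482 called genes no siSTAU1 library overlapped a siCTRL library. A call with 2 libraries a side nearly always goes with such a gap, so this adds nothing to the call. The same holds wherever called genes are said below to be apart, and the share without overlap over all genes tested is not given. The spread behind these calls was narrow. The SD over genes of the log2 CPM difference was 0.189 between the siCTRL libraries and 0.179 between the siSTAU1 libraries. Between the group means it was 0.341. The values within groups compare single libraries and the last compares means of 2 libraries, which scatter less, so they are unlike measures. The count of calls fell from 6482 to 4073 when siCTRL replicate 1 was left out and to 4321 without siCTRL replicate 2.

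**Figure D1:**
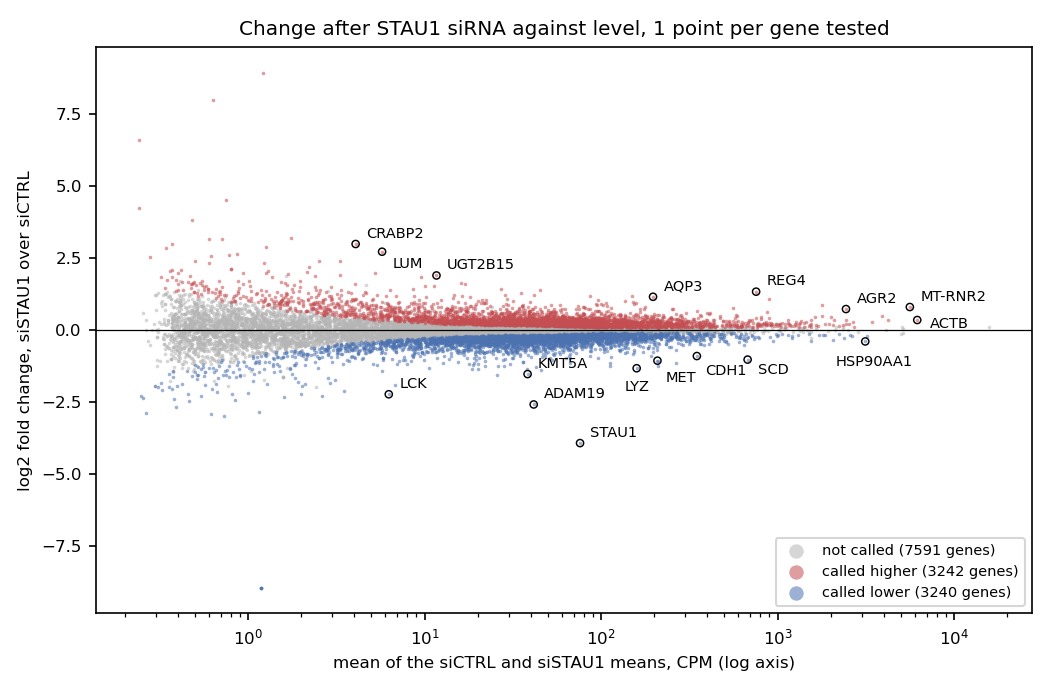
Each point is 1 of the 14073 genes tested, with its mean level in CPM on a log axis (x) and its log2 fold change, siSTAU1 over siCTRL (y). Called genes spread on both sides of 0 at every level, STAU1 lies lowest among genes above 5 CPM, and the far points near 1 CPM include U1 snRNA copies and HIST2H2AA3, whose near-identical copies share reads.

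Among genes averaging at least 5 CPM, the 15 largest rises ranged from 2.33-fold (SHH) to 6.62-fold (LUM), and the 15 largest falls from 2.37-fold (GABARAPL2) to 15.1-fold (STAU1). None of these 30 genes had overlapping groups. In order of size the rises were LUM, UGT2B15, UGT2B17, ENTPD8, PRLR, MAPK8IP1, TM4SF4, RARRES1, H19, CXCL8, MATN2, REG4, ABCB1, TUBB3 and SHH. After STAU1, the falls were ADAM19, LCK, PRDM8, GATD1, KMT5A, KRT4, VMA21, PMP22, P3H3, UCA1, LYZ, DUSP10, SLC7A8 and GABARAPL2. UGT2B15 and UGT2B17 are near-identical copies, so reads could be split between them and their separate levels are uncertain.

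The rises included secreted and signalling proteins. CXCL8, the neutrophil chemoattractant interleukin-8, stood at 25.1 and 24.1 CPM with siCTRL and 66 and 65.2 CPM with siSTAU1 (log2 fold change 1.41 ± 0.06, adjusted p = 2.18e-08). SHH, the Sonic hedgehog ligand, was at 16.3 and 17.8 CPM with siCTRL and 39.4 and 40.1 CPM with siSTAU1 (log2 fold change 1.22 ± 0.07, adjusted p = 2.03e-07). REG4, a secreted lectin-like protein of intestinal secretory cells, was the most abundant of the 15, at 420.1 and 436 CPM with siCTRL and 1057 and 1109.8 CPM with siSTAU1 (log2 fold change 1.34 ± 0.041, adjusted p = 1.45e-09). In all of these the siSTAU1 libraries lay above both controls by much more than the gap between replicates. ABCB1, the P-glycoprotein drug efflux pump, was at 20.6 and 20.2 CPM with siCTRL and 50.7 and 48.8 CPM with siSTAU1 (log2 fold change 1.28 ± 0.064, adjusted p = 7.05e-08). The imprinted long noncoding RNA H19 was at 14.6 and 14.7 CPM with siCTRL and 39.5 and 39.4 CPM with siSTAU1 (log2 fold change 1.43 ± 0.066, adjusted p = 4.18e-08), with the replicates of each group nearly equal. TUBB3, the beta-tubulin isotype known from neurons, was at 9.01 and 8.61 CPM with siCTRL and 20.2 and 21.2 CPM with siSTAU1. MATN2, a matrilin of the extracellular matrix, was at 3.36 and 3.68 CPM with siCTRL and 9.5 and 8.93 CPM with siSTAU1, the lowest level of these examples, and was still apart between groups.

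The falls included enzymes and regulators with different roles. LYZ, the antibacterial enzyme lysozyme made by gut secretory cells, was at 232 and 222 CPM with siCTRL and 90.2 and 91.9 CPM with siSTAU1 (log2 fold change -1.32 ± 0.037, adjusted p = 1.45e-09). SLC7A8, a neutral amino acid transporter of the plasma membrane, was at 58.4 and 62.8 CPM with siCTRL and 26.7 and 23.4 CPM with siSTAU1 (log2 fold change -1.28 ± 0.074, adjusted p = 2.14e-07). DUSP10, a phosphatase that inactivates the stress kinases p38 and JNK, was at 14.4 and 15.8 CPM with siCTRL and 6.21 and 5.95 CPM with siSTAU1 (log2 fold change -1.31 ± 0.10, adjusted p = 1.64e-06). Both siSTAU1 libraries lay below both controls in each of these genes. GABARAPL2, an autophagy protein of the ATG8 family, was at 39.5 and 39.8 CPM with siCTRL and 16.8 and 16.6 CPM with siSTAU1 (log2 fold change -1.24 ± 0.065, adjusted p = 9.97e-08). PMP22, a myelin membrane protein that is also found in epithelia, was at 28.1 and 29.6 CPM with siCTRL and 11 and 11.7 CPM with siSTAU1. The long noncoding RNA UCA1 was at 55.9 and 53.2 CPM with siCTRL and 21.4 and 22 CPM with siSTAU1. P3H3, of the collagen prolyl 3-hydroxylase family, was at 27.6 and 25.9 CPM with siCTRL and 10.5 and 10.7 CPM with siSTAU1.

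**Figure D2:**
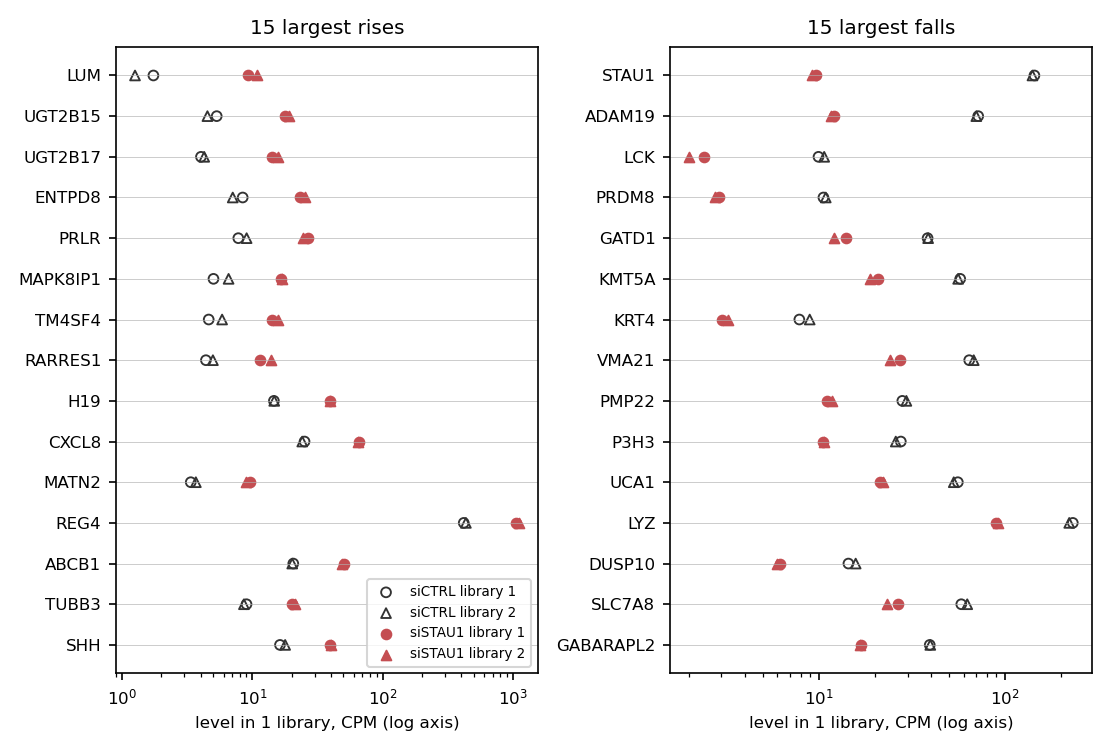
Level of the 15 genes with the largest rises (left) and the 15 with the largest falls (right) in each library, in CPM on a log axis, with open symbols for siCTRL and filled symbols for siSTAU1 (circles replicate 1, triangles replicate 2). In every gene the filled symbols lie apart from the open ones, and the widest gap is that of STAU1.

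Ranked by gain of CPM rather than by fold, the rises were led by a few abundant RNAs. CPM counts reads and takes no account of transcript length. The mitochondrial ribosomal RNA MT-RNR2 went from 4085 ± 31 to 7145 ± 452 CPM (log2 fold change 0.81 ± 0.056, adjusted p = 7.87e-07), and MT-RNR1 from 569 ± 103 to 1216 ± 10.7 CPM (log2 fold change 1.09 ± 0.085, adjusted p = 1.89e-06). Both are ribosomal RNAs measured in libraries selected for polyA, and the siCTRL libraries differed in MT-RNR1, at 642 and 496 CPM. The cytoplasmic actins ACTB and ACTG1 gained 1516 and 1366 CPM, with log2 fold changes of 0.36 and 0.51. TMSB4X, the actin monomer binder thymosin beta 4, went from 1253 ± 46.9 to 2323 ± 95.1 CPM (log2 fold change 0.89 ± 0.047, adjusted p = 9.97e-08). AGR2, a protein disulfide isomerase of mucus-secreting cells, went from 1832 ± 32.6 to 3051 ± 81.6 CPM (log2 fold change 0.74 ± 0.044, adjusted p = 2.79e-07). The other gains of the 10 largest were RPS2, RPLP0, REG4 and FTL, the ferritin light chain. On the per-length TPM scale the order differed. There the mean went from 3802 to 6532 for TMSB4X, from 3935 to 6418 for MT-RNR2 and from 4582 to 5460 for ACTB.

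The 10 largest losses of CPM were mostly modest folds of abundant mRNAs. HSP90AA1, the inducible cytosolic chaperone HSP90 alpha, went from 3559 ± 67.9 to 2719 ± 58.4 CPM (log2 fold change -0.39 ± 0.045, adjusted p = 3.68e-05). PIGR, the receptor that carries polymeric immunoglobulins across epithelium, went from 2310.3 ± 60 to 1811 ± 59.4 CPM (log2 fold change -0.35 ± 0.044, adjusted p = 6.43e-05). SCD, which desaturates stearoyl-CoA, went from 906 ± 22.8 to 447 ± 17.3 CPM (log2 fold change -1.02 ± 0.04, adjusted p = 1.33e-08), and it was the only one of the 10 that changed by 2-fold. FASN, the fatty acid synthase, went from 757 ± 23.2 to 531 ± 11.6 CPM (log2 fold change -0.51 ± 0.038, adjusted p = 1.38e-06). The others were the glycolytic enzyme PKM, PTMA, NCL, HSPD1, KRT18 and HNRNPU, with log2 fold changes from -0.37 (NCL) to -0.18 (KRT18). The calls of PTMA and HSPD1 were lost without siCTRL replicate 1 (adjusted p = 0.128 and 0.0752), and that of KRT18 without siCTRL replicate 2 (adjusted p = 0.116).

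Long and short transcripts differed in their direction, which bears on every gene list below. Over 12296 protein-coding genes, sorted into 5 classes by the length of the principal transcript, the median log2 fold change was 0.16 in the shortest class (up to 1798 bases) and -0.16 in the longest (from 5406 bases). In the shortest class 42.5% of genes were called higher and 8.07% lower, and in the longest 13.8% higher and 43.9% lower. Spearman's rho across these genes was -0.33 with transcript length, -0.37 with coding length and -0.16 with 3′ UTR length, and 0.08 with GC content. Genes are not independent replicates, and these values are descriptions. A trend with length was also present between replicates: rho was -0.33 for siSTAU1 replicate 2 minus replicate 1 and -0.14 for siCTRL replicate 2 minus replicate 1. The sign of both values depends only on the order of subtraction. In size, the value within siSTAU1 was close to the -0.33 between groups. The medians of these differences ran from 0.06 to -0.06 within siSTAU1 and from 0.03 to -0.02 within siCTRL over the 5 classes. These spans were narrower than the 0.16 to -0.16 between groups. For siSTAU1 replicate 1 alone rho was -0.29 against siCTRL replicate 1 and -0.26 against siCTRL replicate 2. The median difference between gene length and effective length, which follows fragment size, was 188 and 186 bases with siCTRL and 184 bases in each siSTAU1 library. The part of library preparation in the trend was not tested.

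**Figure D3:**
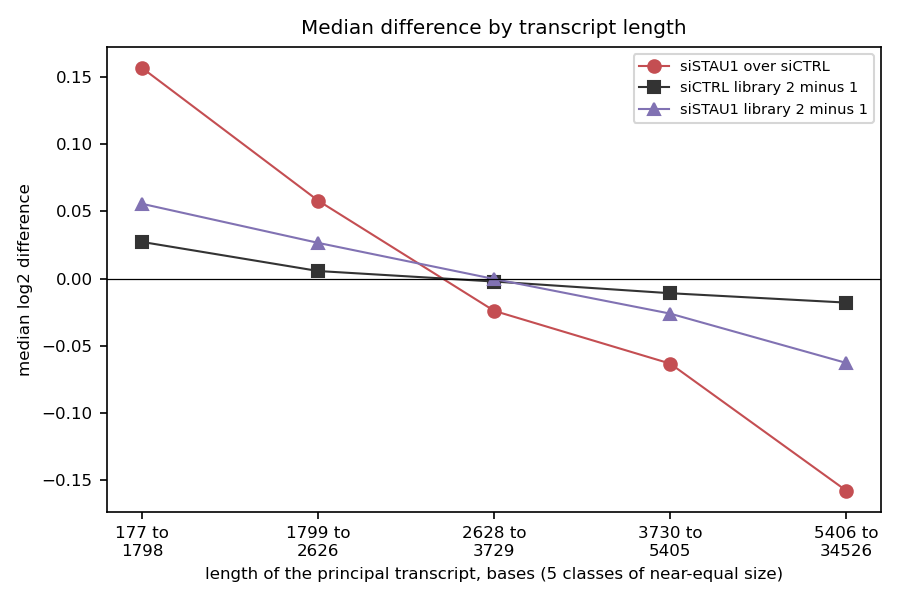
Median log2 difference (y) in 5 classes of principal transcript length in bases (x), for siSTAU1 over siCTRL (circles) and for the difference between replicates within siCTRL (squares) and within siSTAU1 (triangles). The line between groups runs from 0.16 to -0.16. Both lines within groups cover a narrower span, and their direction depends only on the order of subtraction.

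The median log2 fold change of a list is to be read beside 0.00 over all genes tested, and its shares called beside the 23% called in each direction. A further median is given after subtracting the median of each gene's length class. Counts of a list under an alternative are to be read beside the calls over all genes there. With effective length as an offset 2189 genes were called higher and 2233 lower, and against a 1.2-fold null 915 and 966. Leaving out either siCTRL library also lowered the calls over all genes, so a smaller count there is not particular to a list. Where the groups of a list's name are broad, the members named are those with the smallest adjusted p and those called against the list's median.

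Of the 33 lists with at least 3 genes tested, chromatin lysine methylation enzymes had the largest share called lower. These enzymes write or erase methyl groups on histone lysines. Of 53 measured members 39 were called lower (73.6%) and 4 higher, with a median of -0.29. Their median transcript length was 5593 bases against 3120.5 over all genes, and after subtraction of the length classes the median was -0.16. KMT5A, which monomethylates lysine 20 of histone H4, was at 57.6 and 56.1 CPM with siCTRL and 20.8 and 18.8 CPM with siSTAU1 (log2 fold change -1.52 ± 0.068, adjusted p = 3.35e-08). PRDM8, of the PRDM family of zinc finger methyltransferases, was at 10.6 and 10.9 CPM with siCTRL and 2.93 and 2.77 CPM with siSTAU1 (log2 fold change -1.91 ± 0.13, adjusted p = 5.3e-07). These were the largest falls of the list, and most members moved little. KDM2A, a histone H3 lysine 36 demethylase, went from 103 ± 0.266 to 76.3 ± 2.23 CPM (log2 fold change -0.44 ± 0.041, adjusted p = 7.43e-06), and the methyltransferase NSD2 from 195 ± 4.81 to 156 ± 4.77 CPM (log2 fold change -0.32 ± 0.037, adjusted p = 3.43e-05). Only 3 of the 39 fell by at least 1.5-fold. The 4 called higher were SETD7, SMYD2, SUV39H2 and SUV39H1, with log2 fold changes from 0.22 to 0.26, of which SETD7 alone kept its call under every alternative except the test against a 1.2-fold change. Against a null of a 1.2-fold change, 12 members were called lower, where 966 of all genes were called lower.

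Tyrosine kinases are the receptors and cytoplasmic kinases that pass growth signals. Of 48 measured members 24 were called lower (50%) and 4 higher, with a median of -0.16 (-0.13 after subtraction of the length classes). With effective length as an offset 18 were called lower. MET, the receptor for hepatocyte growth factor, was at 277 and 286 CPM with siCTRL and 137 and 134 CPM with siSTAU1 (log2 fold change -1.06 ± 0.035, adjusted p = 2.89e-09). LCK, a SRC-family kinase best known from T cells, was at 9.97 and 10.7 CPM with siCTRL and 2.41 and 2.01 CPM with siSTAU1 (log2 fold change -2.22 ± 0.14, adjusted p = 4.39e-07). The levels of both fell below their controls in each siSTAU1 library by more than 2-fold, from very different starting points. EPHA1, an ephrin receptor, went from 62.2 ± 0.11 to 40.3 ± 0.00903 CPM (log2 fold change -0.63 ± 0.055, adjusted p = 4.7e-06), and the cytoplasmic kinase ABL1 from 90 ± 1.54 to 64.5 ± 0.729 CPM (log2 fold change -0.48 ± 0.044, adjusted p = 6.35e-06). The epidermal growth factor receptor EGFR went from 73.9 ± 0.952 to 59.7 ± 4.86 CPM (log2 fold change -0.31 ± 0.058, adjusted p = 0.00112). Called higher were TYRO3, PTK7, RYK and FER, with log2 fold changes of 0.28, 0.37, 0.17 and 0.27. With effective length as an offset none of the 4 was called, and each call was also lost without at least 1 of the siCTRL libraries (TYRO3, PTK7 and FER without replicate 1, RYK and FER without replicate 2).

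The list of double-stranded RNA binding proteins had 11 of 19 measured members called lower (57.9%), STAU1 among them, and 2 higher, with a median of -0.17 (-0.08 after subtraction of the length classes). SON, a nuclear speckle protein, went from 262 ± 2.66 to 211 ± 9.84 CPM (log2 fold change -0.31 ± 0.038, adjusted p = 5.27e-05). DROSHA, the nuclease that cuts primary microRNAs, went from 70.6 ± 2.48 to 50.8 ± 3.8 CPM (log2 fold change -0.47 ± 0.06, adjusted p = 6.77e-05). These were falls of less than 1.5-fold, and STAU1 was the only member past that size. STAU2 and TARBP2, a DICER partner, were called higher. Leaving out siCTRL replicate 1 left 7 members called lower, and the call of TARBP2 was lost (adjusted p = 0.119).

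In the small RNA pathway, which shares 5 members with the preceding list, 9 of 17 were called lower (52.9%) and 2 higher, with a median of -0.15 (-0.08 after subtraction of the length classes). Besides DROSHA these included XPO5, the export receptor of precursor microRNAs, which went from 97 ± 0.703 to 72.6 ± 1.99 CPM (log2 fold change -0.42 ± 0.042, adjusted p = 1.3e-05). TNRC6A, a GW182 protein that links Argonaute to deadenylation, went from 24.2 ± 0.0377 to 14.9 ± 0.603 CPM (log2 fold change -0.71 ± 0.072, adjusted p = 1.48e-05). Its paralogue TNRC6B went from 60.3 ± 2.5 to 43.5 ± 1.03 CPM (log2 fold change -0.47 ± 0.058, adjusted p = 5.27e-05). RAN, the small GTPase of nuclear transport, went the other way, from 791 ± 11.9 to 923 ± 46.9 CPM (log2 fold change 0.22 ± 0.042, adjusted p = 0.0011).

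Other RNA machinery moved in both directions. Of 49 measured deadenylation, decapping and exosome genes 11 were called higher (22.4%) and 13 lower (26.5%), near the shares over all genes, with a median of 0.00 (0.00 after subtraction of the length classes). DDX6, a helicase of P-bodies, fell from 179 ± 5.6 to 133 ± 3.44 CPM (log2 fold change -0.43 ± 0.038, adjusted p = 4.38e-06), and the deadenylase CNOT7 rose from 154 ± 2.18 to 184 ± 1.19 CPM (log2 fold change 0.26 ± 0.034, adjusted p = 8.37e-05). Without siCTRL replicate 1, 4 of these genes were called higher. Of 48 translation factors 11 were called higher (22.9%) and 9 lower (18.8%), with a median of 0.03 (0.01 after subtraction of the length classes). The cytoplasmic polyA-binding protein PABPC4 rose from 84.6 ± 1.96 to 144 ± 2.52 CPM (log2 fold change 0.76 ± 0.038, adjusted p = 7.02e-08), and EIF5B, which joins the ribosomal subunits, fell from 251 ± 12.4 to 166 ± 11.5 CPM (log2 fold change -0.60 ± 0.048, adjusted p = 2.71e-06). 5 translation factors were called higher when siCTRL replicate 1 was left out. Of 20 aminoacyl-tRNA synthetases, which charge tRNAs with amino acids, 10 were called lower (50%) and 1 higher (5%), with a median of -0.08 (-0.08 after subtraction of the length classes). EPRS had the smallest adjusted p, going from 472 ± 6.75 to 366 ± 13.7 CPM (log2 fold change -0.37 ± 0.037, adjusted p = 1.36e-05). The synthetase DARS was called higher (0.12), a call lost without either siCTRL library.

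**Figure D4:**
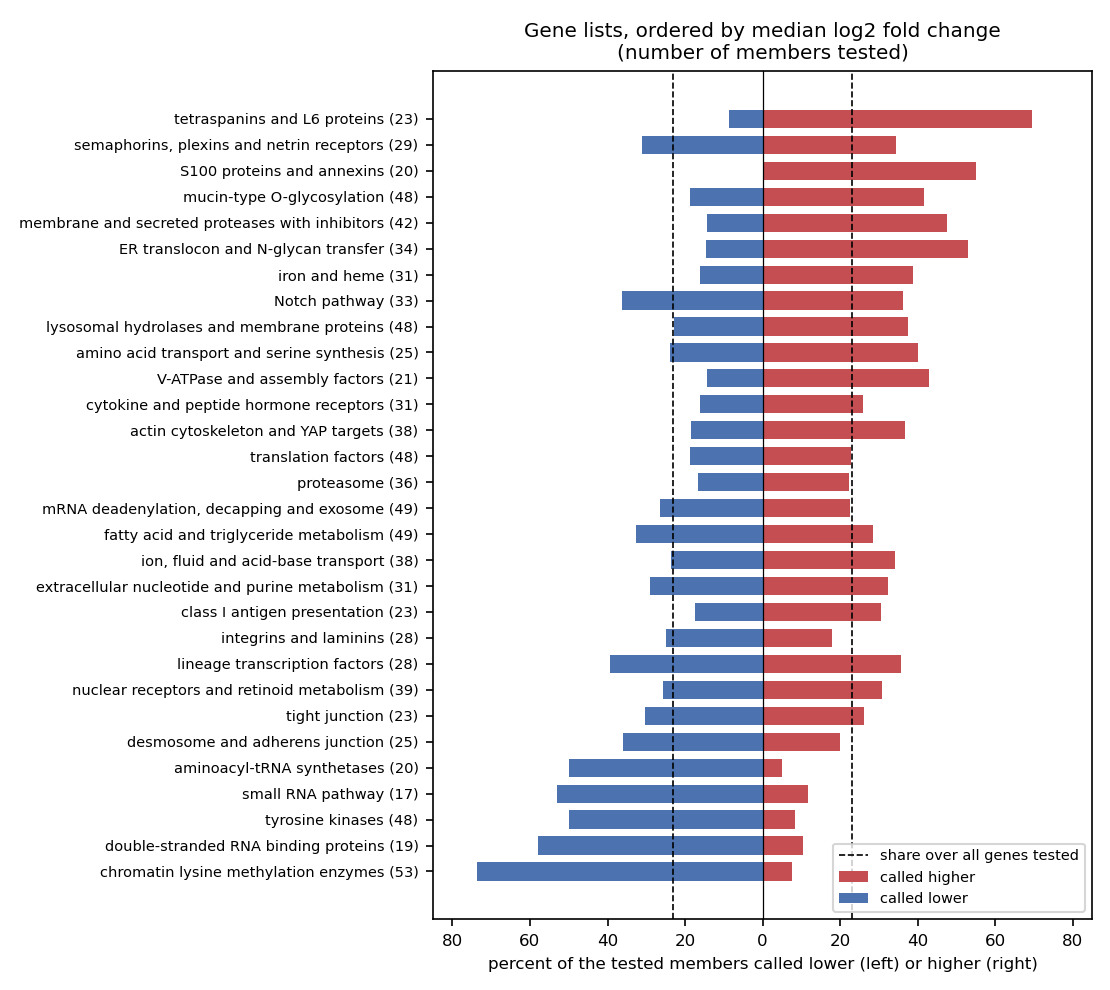
Percent of the tested members of each gene list called higher (right) or lower (left), with the number of members tested beside each name and the lists ordered by median log2 fold change. Dashed lines mark the 23% called in each direction over all genes tested, and chromatin lysine methylation enzymes (73.6% lower) and tetraspanins (69.6% higher) reach farthest.

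Some membrane and secretory lists leaned the other way. Others did not: of integrins and laminins 17.9% were called higher and 25% lower. Tetraspanins and L6 proteins, 4-pass membrane proteins of the cell surface and of vesicles, had 16 of 23 measured members called higher (69.6%) and 2 lower, with a median of 0.27 (0.16 after subtraction of the length classes). TSPAN1 was at 106 and 110.0 CPM with siCTRL and 196 and 205 CPM with siSTAU1 (log2 fold change 0.90 ± 0.038, adjusted p = 2.18e-08). TSPAN13 was at 184 and 192 CPM with siCTRL and 309 and 318 CPM with siSTAU1 (log2 fold change 0.74 ± 0.036, adjusted p = 6.52e-08). CD63, a marker of late endosomes and exosomes, was at 235 and 245 CPM with siCTRL and 354 and 375 CPM with siSTAU1 (log2 fold change 0.60 ± 0.039, adjusted p = 4.47e-07). In each of these genes both siSTAU1 libraries were above both controls. TM4SF4, an L6 protein of much lower level, was at 4.62 and 5.85 CPM with siCTRL and 14.1 and 15.8 CPM with siSTAU1 (log2 fold change 1.52 ± 0.12, adjusted p = 2.61e-06). TSPAN14 and CD82 were called lower, with log2 fold changes of -0.26 and -0.26. Against a 1.2-fold null 7 members were called higher, where 915 of all genes were. Fewer members were called higher without siCTRL replicate 1 than with all libraries.

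S100 proteins and annexins, which are calcium-binding proteins, had 11 of 20 measured members called higher (55%) and none lower, with a median of 0.15. These are short transcripts, with a median of 1433.5 bases, and after subtraction of the length classes the median was 0.04. S100P went from 272 ± 14.6 to 430.3 ± 25.4 CPM (log2 fold change 0.66 ± 0.047, adjusted p = 1.01e-06), S100A13 from 23.7 ± 1.88 to 37 ± 0.0864 CPM and ANXA3 from 42 ± 0.662 to 58.8 ± 0.26 CPM. ANXA5, which binds phosphatidylserine, went from 119.8 ± 1.3 to 163 ± 10.2 CPM (log2 fold change 0.44 ± 0.044, adjusted p = 1.09e-05). Without siCTRL replicate 1 the count of members called higher was 6. DESeq2 also called 0 of them lower, 0 had an unadjusted p under 0.05 in that direction in edgeR, and 1 was called lower with the replicate number as a block.

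The machinery that brings proteins into the endoplasmic reticulum and attaches N-glycans had 18 of 34 measured members called higher (52.9%) and 5 lower, with a median of 0.13 (0.10 after subtraction of the length classes). SEC11A, a catalytic subunit of the signal peptidase, went from 144 ± 0.671 to 198 ± 3.78 CPM (log2 fold change 0.45 ± 0.034, adjusted p = 1.41e-06). The signal recognition particle receptor subunits SRPRA and SRPRB went from 212 ± 4.05 to 275 ± 6.09 CPM and from 103 ± 1.44 to 134 ± 0.197 CPM. OST4, the smallest oligosaccharyltransferase subunit, went from 116 ± 0.984 to 150.3 ± 5.35 CPM (log2 fold change 0.38 ± 0.038, adjusted p = 1.21e-05). Within the same enzyme complex DDOST and RPN2 were called lower, DDOST from 425 ± 13.4 to 337 ± 6.95 CPM (log2 fold change -0.34 ± 0.036, adjusted p = 2.32e-05) and RPN2 from 461 ± 6.36 to 404 ± 3.17 CPM. All of these were changes of less than 1.5-fold. With siCTRL replicate 1 left out, 12 members were called higher and 3 lower, and SEC63, a translocon subunit called lower here (-0.19), had the opposite sign with effective length as an offset (0.20, adjusted p = 0.277).

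Enzymes of mucin-type O-glycosylation had 20 of 48 measured members called higher (41.7%) and 9 lower (18.8%), with a median of 0.14 (0.15 after subtraction of the length classes). B4GALT1, a galactosyltransferase, went from 88.8 ± 1.76 to 123 ± 1.62 CPM (log2 fold change 0.47 ± 0.037, adjusted p = 2.6e-06). Several branching and capping enzymes fell instead. GCNT3, which builds core 2 and core 4 branches on mucins, was at 241 and 236 CPM with siCTRL and 152 and 158 CPM with siSTAU1 (log2 fold change -0.62 ± 0.035, adjusted p = 2.03e-07). ST3GAL1, a sialyltransferase that caps core 1, was at 75.6 and 77.2 CPM with siCTRL and 48.2 and 42.1 CPM with siSTAU1 (log2 fold change -0.76 ± 0.063, adjusted p = 3.38e-06). B3GNT6, the core 3 synthase, was low throughout, at 3.14 and 3.43 CPM with siCTRL and 0.882 and 0.523 CPM with siSTAU1 (log2 fold change -2.21 ± 0.29, adjusted p = 7.64e-05). In these genes the groups did not overlap.

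Of the membrane and secreted proteases with their inhibitors, 20 of 42 measured members were called higher (47.6%) and 6 lower (14.3%), with a median of 0.13 (0.14 after subtraction of the length classes). PRSS23, a secreted serine protease, was at 101 and 101 CPM with siCTRL and 201 and 203 CPM with siSTAU1 (log2 fold change 1.00 ± 0.034, adjusted p = 3.43e-09). TIMP2, a metalloproteinase inhibitor, was at 6.02 and 6.73 CPM with siCTRL and 13.9 and 14.2 CPM with siSTAU1 (log2 fold change 1.15 ± 0.10, adjusted p = 4.71e-06). ADAM19, a membrane-bound metalloprotease, was at 72 and 70.3 CPM with siCTRL and 12.1 and 11.7 CPM with siSTAU1 (log2 fold change -2.58 ± 0.066, adjusted p = 7.63e-10). The membrane endopeptidase MME, also named neprilysin, was at 256 and 245 CPM with siCTRL and 137 and 132 CPM with siSTAU1 (log2 fold change -0.90 ± 0.037, adjusted p = 1.81e-08). PLAU, the urokinase-type plasminogen activator, was at 7.46 and 7.98 CPM with siCTRL and 3.57 and 4.3 CPM with siSTAU1 (log2 fold change -0.97 ± 0.14, adjusted p = 0.000157). Both groups were apart in all of these, with PRSS23 and TIMP2 up and the other named proteases down. Without siCTRL replicate 1, 11 members of the list were called higher.

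Cell contact genes changed by gene rather than as a group. Of 25 measured desmosome and adherens junction genes 5 were called higher (20%) and 9 lower (36%), with a median of -0.05 (0.03 after subtraction of the length classes). CDH1, the epithelial cadherin, was at 458 and 449.8 CPM with siCTRL and 247 and 241 CPM with siSTAU1 (log2 fold change -0.90 ± 0.034, adjusted p = 9.51e-09). DSC2, a desmosomal cadherin, was at 72.4 and 71.6 CPM with siCTRL and 136 and 128 CPM with siSTAU1 (log2 fold change 0.88 ± 0.042, adjusted p = 5.38e-08). Those 2 cadherins changed in opposite directions by a like amount. The plakophilin PKP2 went from 270.2 ± 0.0877 to 194 ± 3.49 CPM (log2 fold change -0.48 ± 0.033, adjusted p = 8.3e-07) and its relative PKP4 from 116 ± 0.99 to 82.3 ± 6.05 CPM. Of 23 tight junction genes 6 were called higher (26.1%) and 7 lower (30.4%), near the shares over all genes, with a median of -0.04 (0.02 after subtraction of the length classes). CLDN1 rose from 45.6 ± 0.758 to 62.5 ± 1.64 CPM (log2 fold change 0.45 ± 0.055, adjusted p = 4.68e-05). With effective length as an offset 3 tight junction genes were called lower. 2 desmosome and adherens junction genes were called higher when siCTRL replicate 1 was left out.

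Among genes of the actin cytoskeleton and targets of the coactivator YAP, 14 of 38 measured members were called higher (36.8%) and 7 lower (18.4%), with a median of 0.04 (0.06 after subtraction of the length classes). MYL9, a regulatory light chain of nonmuscle and smooth muscle myosin, was at 11 and 11.2 CPM with siCTRL and 24.1 and 25.7 CPM with siSTAU1 (log2 fold change 1.17 ± 0.077, adjusted p = 5.66e-07). CCN2, a secreted matricellular protein and YAP target, was at 15.2 and 15.5 CPM with siCTRL and 29.6 and 29.4 CPM with siSTAU1 (log2 fold change 0.94 ± 0.068, adjusted p = 1.1e-06). TAGLN, an actin-binding protein of smooth muscle, was at 12 and 11.2 CPM with siCTRL and 22 and 22.8 CPM with siSTAU1 (log2 fold change 0.95 ± 0.078, adjusted p = 3.09e-06). The light chain MYL6 went from 682 ± 20.6 to 1055 ± 47.9 CPM and tropomyosin TPM1 from 299 ± 7.45 to 429 ± 10.3 CPM. YAP1 itself was called lower, from 134 ± 1.58 to 117 ± 8.9 CPM (log2 fold change -0.19 ± 0.047, adjusted p = 0.00609), a call lost without either siCTRL library. TLN1, the adhesion protein talin, was called lower (-0.28). With effective length as an offset 4 members were called lower, and TLN1 was not among the called (adjusted p = 0.134).

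Transcription factors of gut lineages were called in both directions, 10 of 28 measured higher (35.7%) and 11 lower (39.3%), with a median of -0.02 (0.02 after subtraction of the length classes). SPDEF, a factor of goblet cell maturation, was at 24.8 and 26.3 CPM with siCTRL and 46.7 and 46.8 CPM with siSTAU1 (log2 fold change 0.87 ± 0.064, adjusted p = 1.2e-06). ATOH1, which specifies secretory cells, was at 21.9 and 22.6 CPM with siCTRL and 31.4 and 29.8 CPM with siSTAU1 (log2 fold change 0.46 ± 0.066, adjusted p = 0.000168). KLF4 was at 32.8 and 32.8 CPM with siCTRL and 51.5 and 47.4 CPM with siSTAU1 (log2 fold change 0.59 ± 0.064, adjusted p = 2.13e-05). HNF4A, a nuclear receptor of enterocyte genes, was at 176 and 169.5 CPM with siCTRL and 129 and 121 CPM with siSTAU1 (log2 fold change -0.47 ± 0.039, adjusted p = 3.49e-06). EHF, an epithelial ETS factor, was at 307 and 292 CPM with siCTRL and 203 and 193 CPM with siSTAU1 (log2 fold change -0.59 ± 0.039, adjusted p = 5.07e-07). The secretory factors named here were higher and HNF4A and EHF lower, each without overlap between groups. Also called higher were ASCL2, CDX1 and CDX2, with log2 fold changes of 0.33, 0.28 and 0.21, calls lost against a 1.2-fold null. The rises were thus not limited to the secretory factors named. FOXA1, FOXA2 and FOXA3 had log2 fold changes of 0.14, -0.44 and 0.42. The call of FOXA1 was lost in DESeq2 (adjusted p = 0.114) and without each of the 4 libraries in turn (adjusted p = 0.0728 to 0.185).

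Ion and water transport had 13 of 38 measured members called higher (34.2%) and 9 lower (23.7%), with a median of 0.00 (-0.02 after subtraction of the length classes). AQP3, a water and glycerol channel, was at 120.2 and 123 CPM with siCTRL and 269 and 275 CPM with siSTAU1 (log2 fold change 1.16 ± 0.035, adjusted p = 1.45e-09). CFTR, the chloride channel of mucosal secretion, was at 96.2 and 89.8 CPM with siCTRL and 136 and 131 CPM with siSTAU1 (log2 fold change 0.52 ± 0.042, adjusted p = 2.9e-06). ATP1B1, the beta subunit of the sodium pump, went from 1469.8 ± 12.3 to 2088 ± 16.6 CPM (log2 fold change 0.51 ± 0.04, adjusted p = 2.22e-06), and its regulator FXYD3 from 130.5 ± 0.109 to 201 ± 12.4 CPM. Leaving out siCTRL replicate 2 reduced the list to 8 called higher and 4 lower.

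Genes of fatty acid and triglyceride metabolism split by enzyme, with 14 of 49 called higher (28.6%) and 16 lower (32.7%) and a median of 0.00 (-0.03 after subtraction of the length classes). DGAT2, which makes triglycerides, was at 32.2 and 35.6 CPM with siCTRL and 54.8 and 58.6 CPM with siSTAU1 (log2 fold change 0.74 ± 0.068, adjusted p = 6.09e-06). SCD was at 922 and 889.8 CPM with siCTRL and 459 and 435 CPM with siSTAU1. LPIN1, a phosphatidate phosphatase, was at 63.8 and 61.8 CPM with siCTRL and 35.8 and 32 CPM with siSTAU1 (log2 fold change -0.89 ± 0.066, adjusted p = 1.24e-06), and the desaturase FADS2 went from 339 ± 2.29 to 240.4 ± 0.363 CPM (log2 fold change -0.50 ± 0.032, adjusted p = 5.2e-07). Also called lower were ACACA (-0.42) and FASN, enzymes of fatty acid synthesis. The desaturases did not move as a class: SCD and FADS2 were called lower, FADS3 was called higher (0.28, a call lost without either siCTRL library, with adjusted p = 0.0703 and 0.0839), and FADS1 was not called (log2 fold change 0.07 ± 0.039, adjusted p = 0.165). With effective length as an offset 8 members were called higher.

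Iron and heme genes had 12 of 31 measured members called higher (38.7%) and 5 lower (16.1%), with a median of 0.10 (0.07 after subtraction of the length classes). HMOX1, which breaks down heme, was at 12.7 and 13.5 CPM with siCTRL and 23.6 and 23.4 CPM with siSTAU1 (log2 fold change 0.84 ± 0.074, adjusted p = 4.98e-06). CYBRD1, a ferric reductase of the gut surface, was at 7.83 and 8.27 CPM with siCTRL and 14.7 and 16.3 CPM with siSTAU1 (log2 fold change 0.94 ± 0.10, adjusted p = 1.32e-05), and FTL went from 1668 ± 54.4 to 2322 ± 88.1 CPM. Amino acid transport and serine synthesis had 10 of 25 called higher (40%) and 6 lower (24%), with a median of 0.06 (0.08 after subtraction of the length classes). SLC7A11, the cystine transporter, was at 107 and 108 CPM with siCTRL and 68.2 and 62.2 CPM with siSTAU1 (log2 fold change -0.73 ± 0.048, adjusted p = 5.89e-07), and the synthetase ASNS, which makes asparagine, was at 95.4 and 88.1 CPM with siCTRL and 126 and 134 CPM with siSTAU1 (log2 fold change 0.50 ± 0.047, adjusted p = 7.32e-06). Without siCTRL replicate 1, 5 amino acid genes were called higher, and without siCTRL replicate 2, 2 iron and heme genes were called lower.

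A search of the letters of 3′ UTRs set one short word apart. For every 7-base word found in the 3′ UTR of at least 200 tested genes, the median log2 fold change of its genes was taken after subtraction of the median of their 3′ UTR length class. Of 13688 words GTGATGC ranked lowest, at -0.11 over 962 genes, and the next, CGGACAC, was at -0.10 over 247 genes. The word was chosen by these values, so what follows describes it and tests nothing. STAU1 was left out of the search. STAU1 also holds the word, once before the 3′ UTR, in a window that spans exons 8 and 9, and once in its 3′ UTR. Windows of 30 bases around it, from GENCODE release 29 transcripts (GRCh38), are shown for STAU1 and for strongly lowered genes with the word in capitals, 5′ to 3′.
STAU1: ggacagtttcaGTGATGCaaattgtgtgcc
STAU1 (before the 3′ UTR): gcagggagtttGTGATGCaggtgaaggttg
ADAM19: tcctctgagccGTGATGCcaaaggttgcga
GATD1: taagcacctcaGTGATGCaccctgtcctaa
VMA21: acttctgttaaGTGATGCttttctaaccgt
GABARAPL2: tgaaagggaagGTGATGCatttattctggg
SEC23A: aattatatcatGTGATGCtcagttctattt
MET: agcagaactttGTGATGCttcattctgtgg
MET: aattaaagtaaaGTGATGCaacatcttgta
CDH1: gagactggttaGTGATGCagttagtatagc
ADAM19, GATD1, VMA21 and GABARAPL2 are those of the 15 largest falls that hold the word in the 3′ UTR, and none of the 15 largest rises does. SEC23A, MET and CDH1 were added after their values were seen.

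In the genome the 3′ UTR windows lie in last exons. That of ADAM19 is at chr5:157480225-157480254 (minus strand, exon 23 of 23), that of GATD1 at chr11:770283-770312 (minus, exon 8 of 8) and that of VMA21 at chrX:151409243-151409272 (plus, exon 3 of 3). That of GABARAPL2 is at chr16:75577672-75577701 (plus, exon 4 of 4), that of SEC23A at chr14:39032241-39032270 (minus, exon 20 of 20) and that of CDH1 at chr16:68833610-68833639 (plus, exon 16 of 16). Those of MET are at chr7:116797510-116797539 and chr7:116798357-116798386 (plus, exon 21 of 21), and the 3′ UTR window of STAU1 is at chr20:49114078-49114107 (minus, exon 14 of 14). The other STAU1 window runs over an intron, between chr20:49120119-49123111.

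The median log2 fold change of the 962 genes with the word was -0.15, against 0.02 for the 11187 genes without it. Of those 962 genes 418 were called lower, 141 higher and 403 were not called. Genes with the word also had longer transcripts, with a median of 5112.5 bases against 3013 bases. After subtraction of the transcript length classes their median was -0.07, against 0.01 without the word, and after subtraction of coding length classes -0.13 against 0.01. The gap thus shrank from -0.16 to -0.073 with transcript length taken into account. GTGATGC still ranked lowest of the 13688 words on that scale, at -0.066 against -0.065 for the next. With 1 copy (868 genes) the median was -0.14 and 43.3% were called lower, with 2 or more copies (94 genes) -0.19 and 44.7%, and with none 23.6%. The word was in the 3′ UTR of 24.3% of the 107 genes called lower by at least 2-fold and of 22.5% of the 463 called lower by at least 1.5-fold. Over all 12149 genes with a 3′ UTR the share was 7.92%, among genes not called 6.73%, and among those called higher by at least 1.5-fold 4.16%. The gap between genes with and without the word had the same sign in each of the 4 pairs of a siSTAU1 and a siCTRL library, from -0.18 to -0.14. Between replicates it was -0.01 within siCTRL and -0.03 within siSTAU1.

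By 3′ UTR length, genes with the word had the lower median in each of 5 classes. In the shortest class (up to 338 bases) the median was -0.25 for 23 genes with the word and 0.08 for the 2409 without. In the longest class (from 2805 bases) it was -0.17 for 487 genes with the word and -0.05 for 1941 without, and the 3 classes between had the same order. Genes with the word before the 3′ UTR only (1532) had a median of -0.10, and those with it in both places (126) -0.23, against 0.03 for the 9655 genes with it in neither. Their coding regions were longer, with medians of 2182.5 and 2304 bases against 1284 bases. After subtraction of the coding length classes these medians were -0.02, -0.14 and 0.01, and after subtraction of the transcript length classes -0.05, -0.12 and 0.02. Of 2370 mature human miRNAs in the RefSeq table (GRCh38.p14), none had bases 2 to 8 complementary to the word. Without the 962 genes, 474 genes remained lower and 592 higher by at least 1.5-fold. The siRNA sequences are not named in the labels, and the part of these letters in the falls was not tested.

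Some strongly lowered genes hold the word, and as they were picked for their falls they do not give the size of the shift that goes with it. SEC23A, a coat protein of vesicles that leave the endoplasmic reticulum, was at 152 and 155 CPM with siCTRL and 69.1 and 71.3 CPM with siSTAU1 (log2 fold change -1.13 ± 0.038, adjusted p = 2.89e-09). GATD1 was at 38.5 and 38.7 CPM with siCTRL and 14 and 12.1 CPM with siSTAU1 (log2 fold change -1.56 ± 0.078, adjusted p = 7.05e-08). VMA21, an assembly factor of the proton pump V-ATPase, was at 64.4 and 68.1 CPM with siCTRL and 27.2 and 24.1 CPM with siSTAU1 (log2 fold change -1.37 ± 0.07, adjusted p = 8.06e-08). On the per-length scale its fall was smaller, 1.53-fold in place of 2.58-fold, from 18.6 and 20.1 TPM to 13.3 and 11.9 TPM, and the mean length RSEM assigned to it was shorter with siSTAU1. The values of ADAM19, MET, CDH1 and GABARAPL2 stand above. Each of these genes was lower in both siSTAU1 libraries than in either control. The word was also in the 3′ UTR of 10 of the 189 genes called higher by at least 2-fold.

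**Figure D5:**
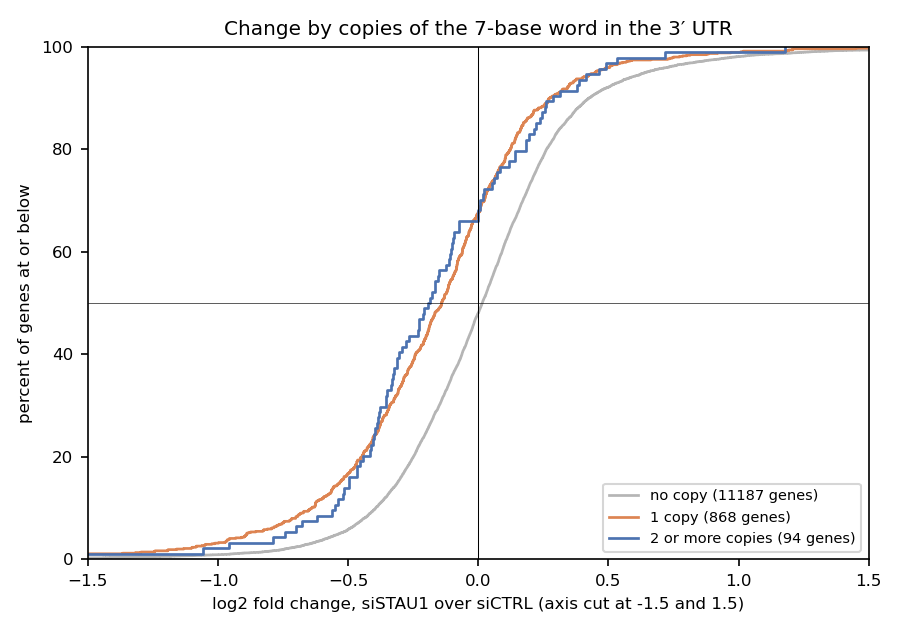
Percent of genes (y) at or below each log2 fold change, siSTAU1 over siCTRL (x, shown from -1.5 to 1.5), for genes with no copy (11187), 1 copy (868) and 2 or more copies (94) of the 7-base word in the 3′ UTR. Curves of genes with the word lie left of the curve without it, and those for 1 and for 2 or more copies lie close together.

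The lengths of the transcripts in use, as RSEM's mean length per gene weighted by isoform, gave no called change. Among 9140 genes limma called 0 (0% of those tested), with a smallest adjusted p of 0.307, while 804 had an unadjusted p under 0.05, of which 337 were longer and 467 shorter. In simulated data the same test recovered 14% of length changes of 1.1-fold and 61% of 1.5-fold, so changes of this size could be missed with 2 libraries a group. VMA21, singled out after its values were seen, had a mean length of 4717 bases in both siCTRL libraries and 2759 and 2629 bases with siSTAU1 (limma adjusted p = 0.307). STAU1 had lengths of 3241 and 3195 bases with siCTRL and 3205 and 3227 bases with siSTAU1.

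Promoter letters for forkhead factors were counted because FOXA genes are the theme of the series. In RefSeq windows of 250 bases before to 50 after the gene start (GRCh38.p14), 4 forms of the forkhead core were searched on both strands: TGTTTAC, the form TGTTTGC, the form TATTTAC and the form TATTTGC. At least 1 form was in 7.69% of 10148 tested genes with a window, in 9.74% of 431 genes called higher by at least 1.5-fold and in 9.20% of 402 called lower by at least 1.5-fold. TGTTTAC alone was in 2.29% of tested genes, 3.25% of those higher and 1.49% of those lower by at least 1.5-fold. Over all 27305 windows 12.2% held at least 1 form. A match is only a run of letters, and no binding was measured here.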

How the data were processed

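PolyA-selected RNA of 4 LS180 libraries was prepared with a stranded mRNA kit, per the labels' protocols. The submitters' processing notes name cutadapt, STAR 2.7, RSEM 1.3.1 and hg38, and neither the annotation release nor the strand setting is stated there. The authors deposited an expected count, a TPM, a length and an effective length per gene and library. RSEM divides reads among similar genes, so levels of near-identical copies are uncertain.

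Expected counts were rounded, filtered with filterByExpr, scaled by TMM and tested with edgeR 4.0.16 (quasi-likelihood, 2 residual degrees of freedom, R 4.3.3), adjusted over 14073 genes. The deposited TPM values served for marker levels. The deposited lengths were tested on the log2 scale with limma 3.58.1 in 9140 genes averaging at least 200 expected counts. DESeq2 1.42.0 was an alternative, beside RLE scaling, other filters, an effective length offset, a 1.2-fold null, a replicate block and leaving out each library. Figures were drawn with matplotlib 3.10.9 in Python 3.11.15. In counts simulated with 200 genes changed, 13903 genes were tested. There the edgeR step recovered 68.7%, 83.6% and 92.4% of changes of 1.5-, 2- and 4-fold. Of its calls 10.4% were false, above the nominal 5%. These shares depend on how many genes change, so they do not carry over to the real data, where far more genes were called.

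Named genes were STAU1, STAU2 and FOXA1 to FOXA3, the 15 largest called rises and falls averaging at least 5 CPM, the 10 largest gains and losses of CPM, and up to 4 members of each of 36 lists by adjusted p with those called against the list's median. Some genes this rule names are not reported here. The members and lists were chosen with earlier results of these data known, and some other list members, SEC23A, and the length of VMA21 were named after their values were seen. The search of 3′ UTR words and of promoter letters was added after the data were seen. The word was first found with another ranking and was lowest in both. GENCODE release 29 transcripts and RefSeq GRCh38.p14 tables gave the sequences.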

Additional observations from a re-analysis of the deposited data

How the results depend on the processing

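Against the 6482 calls reported, a test against a 1.2-fold change called 1881 genes (915 higher and 966 lower). Leaving out each library in turn gave 4073 to 6394 calls, 1968 to 3102 higher and 2105 to 3292 lower, the lowest without siCTRL replicate 1. DESeq2 called 4637 genes, the effective length offset 4422, RLE scaling 6453 and no filter 5410. Of 333 named genes, 160 stayed on the same side of the threshold with the same sign under every alternative run. Among the 333, the stricter test against a 1.2-fold change alone lost the calls of 166. The effective length offset lost those of 53, DESeq2 those of 32, and RLE scaling kept all 333. The sign turned with the effective length offset for SEC63 (0.20), PPARA (-0.021) and PDGFRB (0.17). Leaving out 1 library gave PDGFRB from -0.88 to 0.11, ERG from -0.48 to 0.073 and SYP from -0.12 to 0.47, with the turned signs without siSTAU1 replicate 1 (PDGFRB, SYP), siCTRL replicate 1 (ERG) and siSTAU1 replicate 2 (ERG, 0.059). None of these was past the threshold in that alternative, and the cause was not tested. The gap of genes with the 3′ UTR word ranged from -0.19 without siSTAU1 replicate 1 to -0.14 with the offset, and was -0.14 and -0.073 after subtraction of coding and of transcript length classes, an alternative chosen after seeing the data.

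The replicate numbers gave no sign of pairing: the deviations of same-numbered libraries correlated at -0.08. With the replicate number as a block 7064 genes were called, 3560 higher and 3504 lower. With 2 libraries a group each gene has 2 residual degrees of freedom. The quasi-likelihood fit also pools the spread over genes, so its p-values rest on that pooling as well. Single libraries decide many small calls.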

Other observations

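Genes of the Notch pathway, a contact signal that sets secretory against absorptive fate in the gut, were called in both directions, 12 of 33 higher (36.4%) and 12 lower (36.4%), with a median of 0.10 (-0.01 after subtraction of the length classes). The ligand JAG1 was at 217 and 215 CPM with siCTRL and 129 and 126 CPM with siSTAU1 (log2 fold change -0.76 ± 0.034, adjusted p = 3.35e-08), and NRARP, a feedback regulator that Notch induces, was at 128 and 125 CPM with siCTRL and 64.3 and 64.6 CPM with siSTAU1 (log2 fold change -0.97 ± 0.039, adjusted p = 1.33e-08). Both were lower in each siSTAU1 library than in either control. LFNG, a glycosyltransferase that modifies Notch receptors, was at 42.1 and 41.9 CPM with siCTRL and 66 and 60.7 CPM with siSTAU1 (log2 fold change 0.59 ± 0.06, adjusted p = 1.32e-05), and HES4 at 18.2 and 21.9 CPM with siCTRL and 36.7 and 38.7 CPM with siSTAU1 (log2 fold change 0.91 ± 0.084, adjusted p = 6.41e-06). Without siCTRL replicate 1, 8 members of the pathway were called lower.

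Among nuclear receptors and retinoid genes, 12 of 39 were called higher (30.8%) and 10 lower (25.6%), with a median of -0.03 (0.02 after subtraction of the length classes). CRABP2, which carries retinoic acid in the cell, was at 0.775 and 1.04 CPM with siCTRL and 6.85 and 7.6 CPM with siSTAU1 (log2 fold change 2.99 ± 0.20, adjusted p = 5.66e-07). Of 23 genes of class I antigen presentation 7 were called higher (30.4%) and 4 lower (17.4%), with a median of -0.01 (-0.04 after subtraction of the length classes). Named members were B2M, the light chain of class I molecules, at 328 and 327 CPM with siCTRL and 489 and 509 CPM with siSTAU1 (log2 fold change 0.61 ± 0.035, adjusted p = 2.18e-07) and the heavy chain HLA-C at 124 and 127 CPM with siCTRL and 99.8 and 98.2 CPM with siSTAU1 (log2 fold change -0.34 ± 0.037, adjusted p = 2.28e-05). HLA genes are near-identical and reads can be split between them. Without siCTRL replicate 1, 2 class I genes were called higher and 2 lower. Among 36 proteasome genes, 8 were called higher (22.2%) and 6 lower (16.7%), at or below the 23% over all genes, with a median of 0.02 (-0.07 after subtraction of the length classes), and without siCTRL replicate 2 only 2 were called higher.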
